A study of Mus musculus with 3 samples.

Results

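Broad domains of Ser5-phosphorylated RNA polymerase II (Pol_II) were defined as peaks of at least 4000 bp in the peak list of untreated macrophages or in that of macrophages treated with LPS, merged where peaks of both lists overlapped, on chromosomes 1 to 19 and X. The rule found 168 such peaks among 53467 in the untreated list and 278 among 49371 in the LPS list, which merged into 367 domains out of 69876 peak regions of both lists together. Because the domains were selected on peak length in these same libraries, the tag densities, ratios and gene coverage given for them are descriptions without a test. All libraries came from bone marrow-derived macrophages of female Fvb mice (Fvb/Hsd in the written methods) on day 7 of differentiation in medium conditioned by L929 cells. They were Ser5 ChIP-Seq from cells without treatment, Ser5 ChIP-Seq from cells given 10 ng/ml lipopolysaccharide (LPS) for 2 h, and input DNA from cells without treatment. With 1 library per condition replicate error could not be measured. The 95% intervals of tag counts, of their ratios and of shares of tags cover counting error only. Those of medians and of promoter shares reflect the spread over regions, genes or promoters, which are not replicates of a condition. In place of a test, a domain was called higher or lower where its scaled tags differed by a factor of at least 2.

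Pol_II is phosphorylated on serine 5 of the heptad repeats of its C-terminal domain by the kinase of TFIIH as it leaves the promoter, and this form is densest at the 5′ ends of genes. At most genes a Ser5 peak is therefore short and sits at the start. A peak that runs on for several kb marks a stretch over which phosphorylated polymerase was found without a gap, as happens over the body of genes that are transcribed heavily. In macrophages LPS is sensed by Tlr4, which acts through NF-kB and AP-1 and, with interferon-beta as an intermediate, through IRF and STAT factors.

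The promoters of 4 genes are shown because their domains lay at both ends of the range of LPS to untreated ratios and covered the annotated start. Each window holds 250 bases before and 50 after the start in GENCODE M1, read from the mm9 genome (NCBIM37) on the strand of the gene, which is the minus strand for all 4. Capitals mark matches on either strand to any of 7 motifs, which may overlap. They were the NF-kB (kB) consensus and an ISRE-like pair of GAAA separated by 2 unspecified bases. The AP-1 motif was searched as TGANTCA and the CRE of cAMP-responsive factors as TGACGTCA. The TATA box was searched as TATAAA. For the GC box, which Sp1 binds, the letters were GGGCGG. For PU.1, the master factor of myeloid cells, they were GAGGAAGT. Ccl5 (chr11.0:83343971-83344270) encodes a chemokine for T cells and monocytes, and its window held a kB match, a PU.1 match and a TATA match. Rsad2 (chr12.0:27141268-27141567) encodes viperin, an antiviral enzyme, and its window held an ISRE-like match, an AP-1 match and a TATA match. Ctsd (chr7.0:149573894-149574193) encodes the lysosomal protease cathepsin D, and its window held 3 GC boxes and an ISRE-like match. Lrp1 (chr10.0:127058155-127058454) encodes an endocytic receptor, and its window held 1 GC box. Other promoters met the same rule and are not shown, such as those of Saa3 with an ISRE-like match only, Oasl1 with a kB match only and Nt5dc2 with a GC box only.
Ccl5: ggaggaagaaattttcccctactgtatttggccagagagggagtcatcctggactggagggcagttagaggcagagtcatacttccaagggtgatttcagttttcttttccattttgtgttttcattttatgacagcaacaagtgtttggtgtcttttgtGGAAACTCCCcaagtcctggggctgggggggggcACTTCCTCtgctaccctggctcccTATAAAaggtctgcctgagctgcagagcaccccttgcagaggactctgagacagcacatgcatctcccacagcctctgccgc
Rsad2: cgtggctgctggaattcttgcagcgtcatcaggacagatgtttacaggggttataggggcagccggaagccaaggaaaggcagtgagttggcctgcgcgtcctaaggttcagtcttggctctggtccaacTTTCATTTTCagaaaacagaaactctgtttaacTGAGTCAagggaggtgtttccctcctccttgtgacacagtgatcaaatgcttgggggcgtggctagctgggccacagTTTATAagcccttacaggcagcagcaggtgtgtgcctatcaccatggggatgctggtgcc
Ctsd: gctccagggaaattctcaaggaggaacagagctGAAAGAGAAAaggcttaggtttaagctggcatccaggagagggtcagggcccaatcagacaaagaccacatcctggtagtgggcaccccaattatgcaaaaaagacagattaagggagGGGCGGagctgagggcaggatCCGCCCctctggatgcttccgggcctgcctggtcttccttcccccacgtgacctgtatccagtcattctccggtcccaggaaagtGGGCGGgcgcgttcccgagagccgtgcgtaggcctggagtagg
Lrp1: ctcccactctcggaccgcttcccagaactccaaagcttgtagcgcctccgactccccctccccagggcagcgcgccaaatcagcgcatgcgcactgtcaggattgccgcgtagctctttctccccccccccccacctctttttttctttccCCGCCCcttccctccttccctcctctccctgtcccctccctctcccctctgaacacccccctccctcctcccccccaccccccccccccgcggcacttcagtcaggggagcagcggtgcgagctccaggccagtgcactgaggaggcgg

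Of the 367 domains, 91 were wide in the untreated list only, 203 in the LPS list only and 73 in both. Their median length was 5382 bp, with a range from 4005 to 28688 bp. They made up 5.08% of the bases of all peak regions, and held 8.87% of the untreated and 15.7% of the LPS tags that fell in peak regions. As a share of the whole library they held 4.42% of the untreated tags (Wilson interval 4.40 to 4.43%), 8.35% of the LPS tags (8.33 to 8.37%) and 0.266% of the input tags (0.262 to 0.270%). The domains thus took a larger part of the LPS library than of the untreated one.

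Tags were counted by their 5′ end, scaled to 1000000 tags on the same chromosomes (TPM, which here stands for tags and not transcripts), and divided by the length in kb. The median density of the 203 domains wide after LPS only was 7.99 TPM per kb in the untreated library and 25.5 in the LPS library. The 91 domains wide in untreated cells only had 21.9 and 11.1, and the 73 domains wide in both had 24.7 and 30.7. The input stayed between 1.05 and 1.35 TPM per kb in the median of each of these classes. Over all domains the median LPS to untreated ratio was 1.78 (order-statistic interval 1.47 to 2.17). At least 2 times higher after LPS were 175 domains (47.7%), and at least 2 times lower were 48 (13.1%). Among all 64477 peak regions with at least 10 tags, 28.0% were at least 2 times higher and 27.8% at least 2 times lower, and most of those regions are short and hold few tags. Among the 5842 regions with at least 308 tags in both Ser5 libraries together, the number held by the domain with fewest, 10.7% were higher and 7.89% lower by that rule, with a median ratio of 0.910. This set is not apart from the domains, since 365 of the 5842 regions hold a domain. Peak length and tag number come from the same tags, so these shares cannot be read as a property of the domains apart from their selection.

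**Figure D1:**
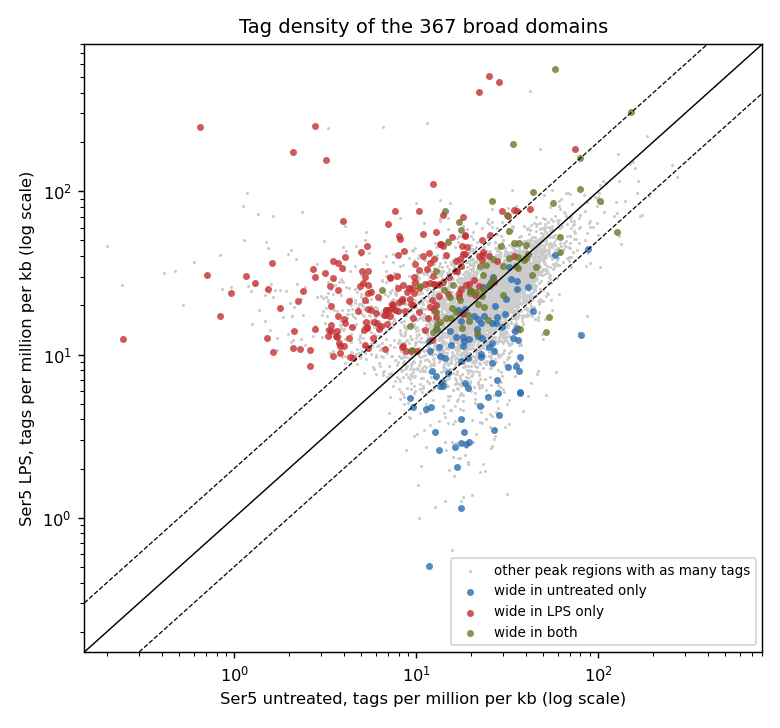
Tag density of the 367 broad domains in the untreated (x axis) and LPS (y axis) Ser5 libraries, in TPM per kb on log scales, with the other peak regions that hold at least 308 tags in grey; the solid line is equality and the dashed lines are 2-fold differences. Domains wide in LPS only lie mostly above the upper dashed line (161 of 203), 44 of the 91 wide in untreated only lie below the lower one, and 55 of the 73 wide in both lie between the dashed lines.

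The plot of densities shows that width and density did not part the classes in the same way. Of the 203 domains wide after LPS only, 161 were at least 2 times higher in tags, 42 were not, and none was 2 times lower. Of the 91 wide in untreated cells only, 44 were at least 2 times lower and 47 were within 2-fold. At Gnai2, a G protein subunit gene, a domain of 4139 bp that was wide in the untreated list only held 834 untreated and 769 LPS tags, a ratio of 1.12 (1.02 to 1.24). At Gtf2ird2 a domain of 4135 bp that was wide in the LPS list only held 572 untreated and 460 LPS tags, a ratio of 0.980 (0.865 to 1.11). The other list usually held broken or shorter peaks at the same place rather than nothing. In the LPS-only class, 173 of 203 domains held several untreated peaks, 24 held 1 and 6 held none, and the longest untreated peak in a domain had a median length of 1590 bp (1356 to 1898). In the untreated-only class, 76 of 91 domains held several LPS peaks, 13 held 1 and 2 held none, with a median longest peak of 1904 bp (1492 to 2515). Peaks of the other list covered 68.0% of an LPS-only domain and 76.2% of an untreated-only domain in the median.

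The largest ratios stood at genes of the chemokine, interferon and acute inflammatory response. The domain of 5835 bp over Ccl5 held 29 untreated, 9035 LPS and 20 input tags, a ratio of 380 (264 to 567). The untreated density there was 1.43 times that of the input, with an interval from 0.784 that held 1. A domain of 4352 bp inside the long gene Art3 held 92 untreated and 6824 LPS tags, a ratio of 90.4 (73.6 to 112), and it also contains the whole of Cxcl10, a chemokine induced by interferon. The 2252 bp of Cxcl10 alone held 55 untreated and 4016 LPS tags. The written study describes Art3 activity as very poor in these cells, from the small amount of Pol_II at its start. Tags carry no information on the transcribed strand, so the ratio is that of the domain and not of Art3. Over Rsad2 a domain of 16059 bp held 258 untreated and 17479 LPS tags, a ratio of 82.6 (73.0 to 93.7). Saa3, an acute phase serum amyloid gene, had 153 untreated and 6105 LPS tags over 6276 bp, a ratio of 48.6 (41.4 to 57.5). Il1b, the gene of the pyrogenic cytokine interleukin-1 beta, had 40 untreated, 1413 LPS and 69 input tags, a ratio of 43.1 (31.5 to 60.5). In untreated cells Il1b thus held fewer Ser5 tags than input tags, as did a domain at Nos2 and a domain at Edn1, and no other domain.

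Nos2, the inducible nitric oxide synthase, carried 2 domains. The one over its start held 43 untreated and 875 LPS tags, a ratio of 24.8 (18.3 to 34.5), and the one further inside held 8 untreated and 335 LPS tags, a ratio of 51.0 (25.6 to 119). With intervals this wide, the order of the 2 is not resolved. Oasl1, of the oligoadenylate synthetase family, had 57 and 1225 tags, a ratio of 26.2. Ifit1, an antiviral protein that binds foreign RNA, had 94 and 1746 tags, a ratio of 22.6. Ccrl2, a chemokine-binding receptor, had 65 and 1129 tags, a ratio of 21.2. Repeated tags moved some of these values. With 1 tag per position and strand the ratio of Ccl5 was 228 and that of the domain with Cxcl10 inside Art3 57.3. In all, 6 domains moved by over 1.5 times. The other 4 were the chemokine gene Ccl4 (18.5 to 8.29), Tnf (9.72 to 5.05) and both domains of Irg1 (20.1 to 9.07 and 16.5 to 7.42), all still over 2.

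**Figure D2:**
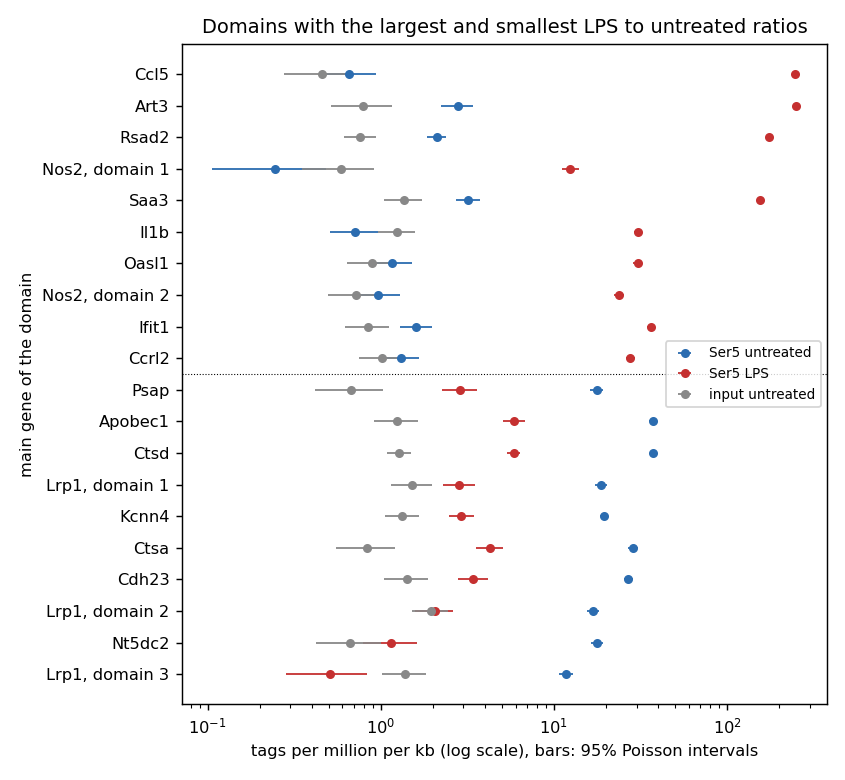
TPM per kb (log scale) of the domains at both ends of the range of LPS to untreated ratios, 10 at each end, with untreated Ser5 in blue, LPS Ser5 in red and input in grey, and bars for exact Poisson 95% intervals. In the upper 10 the untreated points lie between 0.244 and 3.20, and in the lower 10 the LPS points lie between 0.508 and 5.91.

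The highest LPS densities were not those with the largest ratios. Tnf, which encodes tumour necrosis factor, had 563 TPM per kb after LPS and 57.9 in untreated cells, from 20260 and 2541 tags over 5763 bp. Irg1, which encodes the enzyme that makes itaconate, had a domain with 509 TPM per kb after LPS and 25.3 before it, and a second with 471 and 28.5. Ccl4 had 407 and 22.1 TPM per kb. In untreated cells these domains held from 14.0 times (Ccl4) to 37.5 times (Tnf) the input density, while Ccl5 held 1.43 and Rsad2 2.77 times. In untreated cells the densest domain lay at the 3′ end of Best1 and contains Fth1, the ferritin heavy chain gene, with 8921 untreated and 14756 LPS tags (152 and 306 TPM per kb).

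Genes of the lysosome and of endocytic uptake were among those with the smallest ratios. A domain of 4726 bp inside Lrp1 held 422 untreated, 15 LPS and 49 input tags, a ratio of 0.0433 (0.0240 to 0.0723), and the LPS density was 0.369 times that of the input (0.192 to 0.669). Another domain of Lrp1, 5 bp away, held 619, 62 and 71 tags in the same order, a ratio of 0.122 (0.0925 to 0.159). The domain over the start of Lrp1 held 697 and 87 Ser5 tags, a ratio of 0.152 (0.120 to 0.190). Nt5dc2 had 618 untreated and 33 LPS tags over 4591 bp, a ratio of 0.0651 (0.0444 to 0.0924). Ctsd had 4490 untreated and 576 LPS tags over 15773 bp, a ratio of 0.156 (0.143 to 0.171). Ctsa, which encodes the lysosomal protective protein cathepsin A, had 971 and 119 tags, a ratio of 0.149 (0.122 to 0.181).

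Psap, the precursor of the saposins that activate sphingolipid breakdown in the lysosome, carried a domain with 558 untreated and 74 LPS tags, a ratio of 0.162 (0.125 to 0.206). The neighbouring domain with 920 and 96 tags was assigned to Cdh23, of which it covers only 1.10%, and it also covers part of Psap. Kcnn4, a calcium-activated potassium channel gene, had 1152 and 142 tags in a domain that reached 5699 bp past its annotated end. Apobec1, an RNA-editing cytidine deaminase gene, had 1460 and 189 tags, a ratio of 0.158. After LPS the second Lrp1 domain was at 1.05 times the input density (from 0.736 to above 1) and Nt5dc2 at 1.73 times (0.985 to 3.08), so neither was resolved from the input, while Ctsa remained at 5.12 times. The input, from untreated cells, is not the lowest level of the Ser5 libraries. Over the gene body the 5 stromal markers lay at 0.159 to 0.897 times its density in untreated cells and 0.174 to 0.932 after LPS, while some markers of other cell types lay above it.

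**Figure D3:**
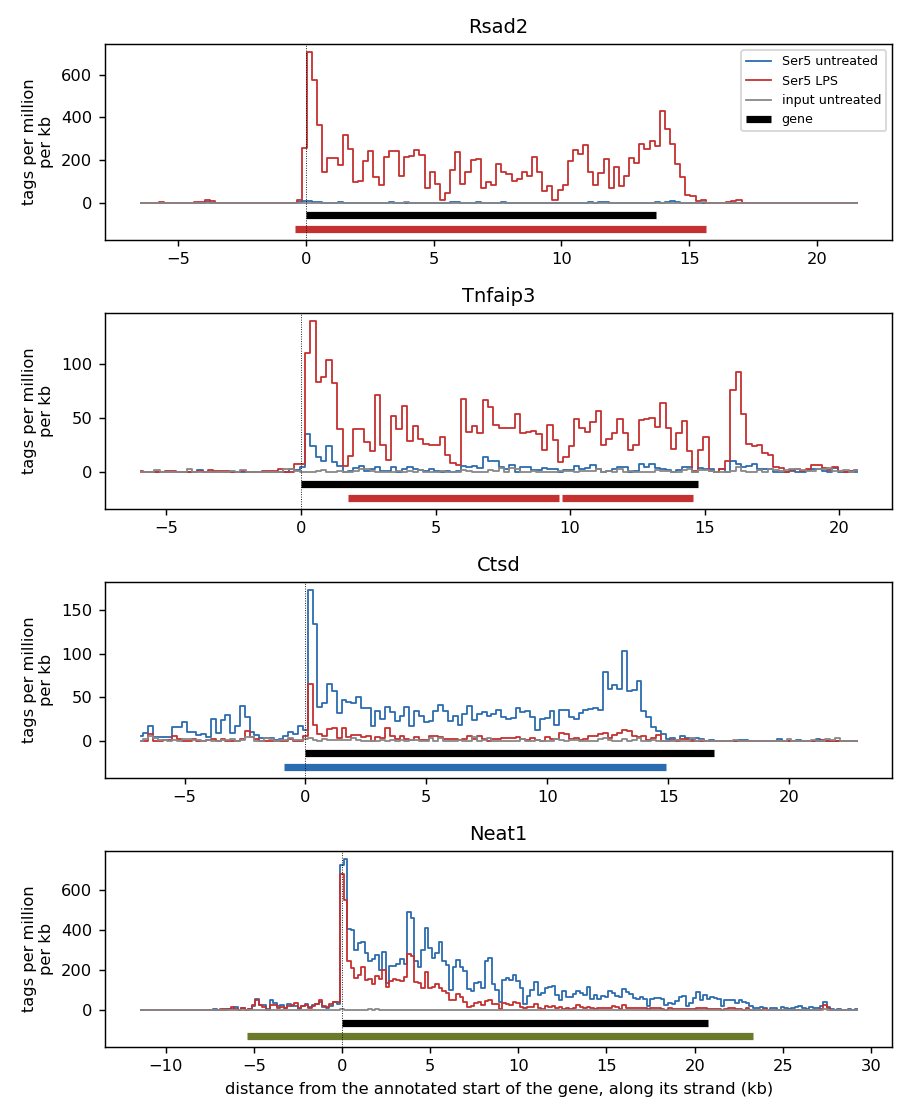
TPM per kb in bins along 4 genes, against the distance in kb from the annotated start along the strand of the gene; untreated Ser5 is blue, LPS Ser5 red and input grey, the black bar is the gene and the coloured bar below it the domain (red wide in LPS only, blue in untreated only, olive in both). At Rsad2 and Tnfaip3 the LPS line stands over the whole gene, at Ctsd the untreated line does, and at Neat1 both do, with the untreated line higher.

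The longest domain, 28688 bp, covered the whole of Neat1, the nuclear RNA that builds paraspeckles, and held 27720 untreated, 10101 LPS and 322 input tags, a ratio of 0.444 (0.434 to 0.454). It was called as 1 peak in the untreated list and LPS peaks covered 96.9% of it. The plot of 4 genes shows that the untreated signal at Neat1 stayed above the LPS signal along most of the gene. Ctsb, encoding the cysteine protease cathepsin B, had the longest domain of the untreated-only class, 18348 bp with 5021 untreated and 1665 LPS tags and a ratio of 0.404 (0.382 to 0.427). It was followed by Ctsd and by Slco4a1, an organic anion transporter gene, with 1517 and 286 tags over 11299 bp. Stab1, a scavenger receptor gene, had 2002 and 362 tags over 10570 bp. The others of the 8 longest in this class were 2 domains of Csf1r, the receptor of the growth factor on which macrophages depend (ratios of 0.441 and 0.437), and domains at Sh3gl1 (0.519) and Sirpa (0.661).

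In the LPS-only class the longest domain, 16675 bp, lay over the 3′ part of Mapkapk2, a kinase downstream of p38, with 688 untreated and 3370 LPS tags, a ratio of 5.97 (5.50 to 6.49). Rsad2 was next with 16059 bp. Rnf213 and Tnfrsf1b, a large ubiquitin ligase gene and a TNF receptor gene, had 635 and 2150 tags and 636 and 2962 tags. Mx2, an interferon-induced dynamin-like GTPase gene, had 319 and 2831 tags over 15134 bp, a ratio of 10.8 (9.63 to 12.2), in a domain that extended 6983 bp past its end and touched Tmprss2. Ehd1 had 1038 and 3103 tags, and 2 domains of Rassf4 had 1013 and 2536, and 1326 and 4782. All 8 of these were at least 3 times higher after LPS.

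Domains wide in both lists held calls in both directions, and 55 were within 2-fold. Of the 73, LPS tags exceeded untreated tags by 2 times or more in 14 and fell short of them by as much in 4, at Ctsb, Fzr1, Ucp2 and Neat1. With 1 tag per position and strand Neat1 had a ratio of 0.509 and was no longer called, 1 of 7 domains that lost their call in that way. After Neat1 the longest was at Xylt2, 16576 bp with 1326 untreated and 2722 LPS tags, a ratio of 2.50 (2.34 to 2.67). Brd2, a chromatin reader of acetylated histones, was covered whole by a domain of 15250 bp with 3762 and 3740 tags, a ratio of 1.21 (1.16 to 1.27). Sirpa had 2585 and 1330 tags over 15648 bp, a ratio of 0.627. Fam20c, Metrnl, Ikbke and Slc15a3 made up the rest of the 8 longest, with ratios of 1.46, 1.41, 2.51 and 3.78.

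A main gene, the one with most bases in the domain, was found for 352 domains, and these were 268 different genes, of which 256 were protein-coding. Peaks of any length covered 61.2% of the main gene in the untreated list (median, interval 54.6 to 73.3%) and 76.3% in the LPS list (69.0 to 84.5%). The paired difference was small in the median over all genes, 1.93 percentage points (0.125 to 5.12), because it went in opposite directions in the classes. Genes of the LPS-only class went from 34.0% to 89.7%, those of the untreated-only class from 87.1% to 39.5%, and those of the class wide in both were at 85.3% and 83.2%. A higher share in the LPS list was found for 121 of 128, 8 of 77 and 24 of 63 genes in that order. The other 11981 coding genes with a Ser5 peak had medians of 3.86% and 3.07%. The classes were set by wide peaks of these same lists, so the class split and the contrast with other genes largely follow from the selection.

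**Figure D4:**
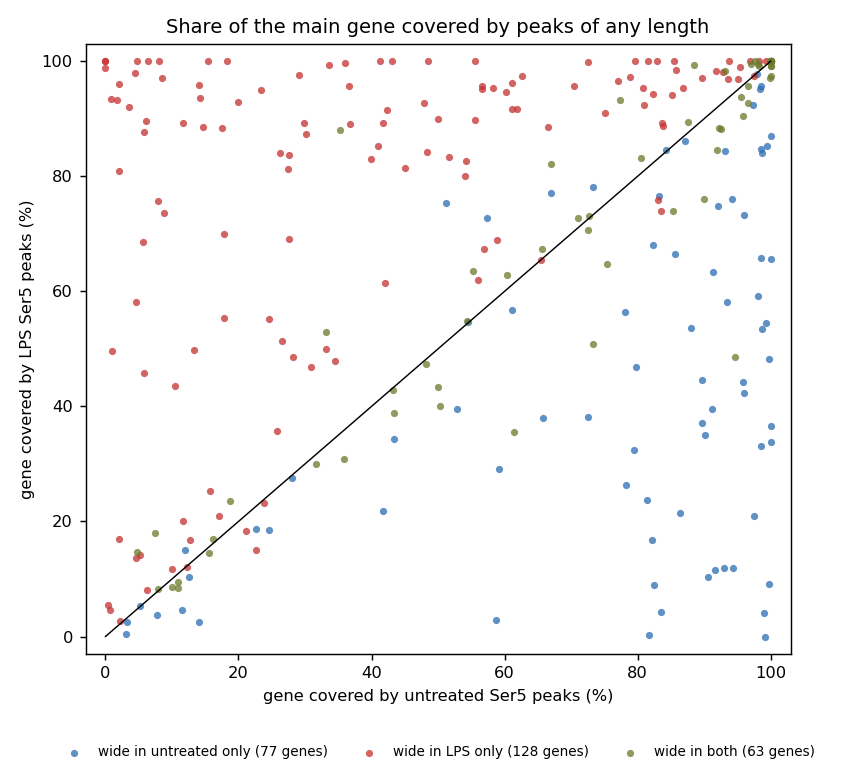
Percent of each of the 268 main genes covered by untreated Ser5 peaks (x axis) and LPS Ser5 peaks (y axis), counting peaks of any length, 1 point per gene coloured by the class of its longest domain; the line is equality. Genes in the upper left corner have little coverage before LPS and almost complete coverage after it, and those at the lower right show the reverse.

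Ccl5 and Saa3 were not covered by any untreated peak and were covered whole after LPS. Il1b went from 0 to 98.9%, Rsad2 from 4.77 to 100%, Ifit1 from 2.08 to 96.0%, Edn1, the gene of the vasoconstrictor endothelin-1, from 4.45 to 98.0% and Nos2 from 0.813 to 93.4%. These genes, from 3679 to 39468 bp long, stand in the upper left corner of the plot of gene coverage. At the other corner stood Nt5dc2, from 99.1 to 0%, Rgs2, a regulator of G-protein signalling, from 99.0 to 4.17%, and Slco4a1, from 99.7 to 9.10%. Scd2, a fatty acid desaturase gene, went from 94.4 to 11.8%, and Lrp1, over its 82988 bp, from 81.8 to 0.290%. In all, 43 genes were at least 50 percentage points higher in the LPS list and 25 at least as many lower. Counting only the domains, 113 genes were covered to at least 50% and 40 were covered whole.

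Of the 352 domains with a main gene, 40 covered both its start and its end, 118 the start only, 82 the end only, and 112 lay wholly inside the gene. The domains inside genes differed from those over the start only. Inside genes the median density was 6.83 TPM per kb in untreated cells (interval 5.44 to 8.52) and 16.9 after LPS (14.4 to 19.4). Over the start only it was 21.6 (18.5 to 24.7) and 26.2 (21.9 to 29.6). The median ratio inside genes was 2.69 (2.34 to 3.07), and 87 of 112 were wide after LPS only. Over the start only the median ratio was 1.20 (1.05 to 1.58) and 53 of 118 were wide after LPS only. The 40 domains over both start and end had a median ratio of 2.18 (1.22 to 3.27), and 19 were wide after LPS only. The part of this class mix, which was set by the LPS list, in the ratios was not tested. Main genes of the inside domains were long, 44032 bp in the median, and 76 of the 112 domains lay at least 10 kb downstream of the annotated start. The farthest was in Pde4b, a cAMP phosphodiesterase gene, at 484004 bp from the start, with 136 untreated and 967 LPS tags.

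Where a domain covered the start of its gene, the 1 kb around the start held a median of 32.9% of the untreated, 30.1% of the LPS and 15.6% of the input tags of the domain. Among the 61 of these domains that were at least 2 times higher after LPS, that share was 37.5% (30.6 to 45.1%) in untreated cells and 27.0% (22.9 to 30.9%) after LPS. Among the 25 that were at least 2 times lower it was 25.4% (17.9 to 34.5%) and 35.6% (20.0 to 47.2%), and in both sets the untreated and LPS intervals overlap. Both libraries were measured on the same domains and no difference per domain is given. The overlap therefore does not show whether the shares differ. The densest 500 bp lay within 500 bp of the start in 100 of 158 domains in the untreated library, in 101 in the LPS library and in 28 in the input. At Tnf the densest 500 bp was centred 57 bp before the start in untreated cells and 2943 bp after it with LPS, just past the end of the gene.

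**Figure D5:**
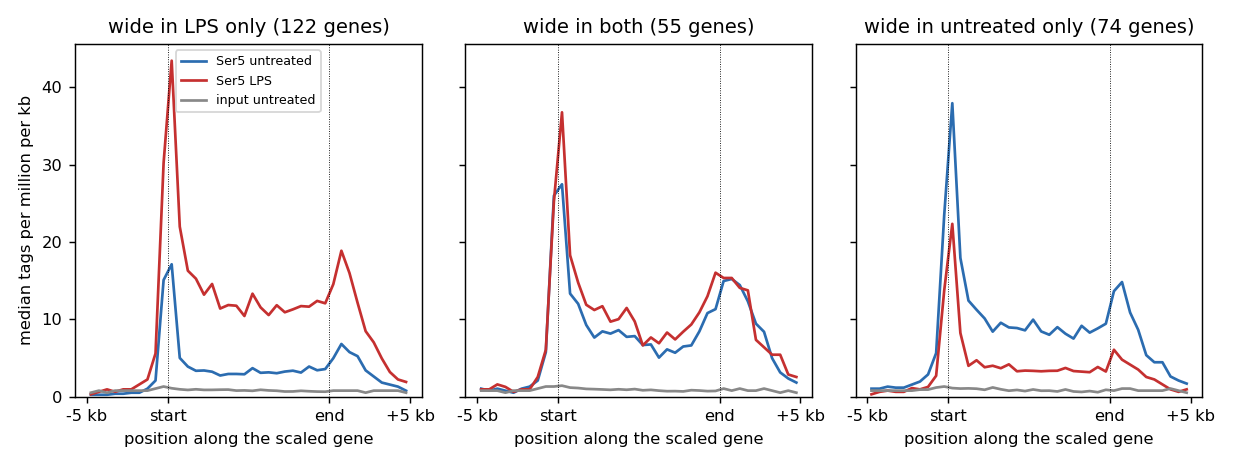
Median TPM per kb along the main genes of at least 3 kb, with 5 kb on either side in bins of 500 bp and the gene scaled into equal bins, for genes whose longest domain was wide in LPS only (122 genes), in both (55) and in untreated only (74). In each class a peak at the start is followed by a plateau in the gene, and in the untreated library each class is higher just past the annotated end than in the last bin of the gene.

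In genes of the LPS-only class the median in the first bin of the gene was 43.5 TPM per kb after LPS and 17.1 in untreated cells, and in the middle of the gene 13.3 and 3.70. In the second 500 bp past the annotated end it was 18.9 and 6.83, above the last bin of the gene with 12.1 and 3.59. Genes of the untreated-only class had 38.0 untreated and 22.4 LPS TPM per kb in the first bin, 9.97 and 3.35 in the middle, and 14.8 and 4.80 past the end. At 4.5 to 5 kb past the end every class was between 0.788 and 2.56 TPM per kb in both Ser5 libraries. The domains that covered a gene end ran on accordingly: the 82 over the end only extended a median of 1999 bp past it (1592 to 2301), and 61 of them by at least 1 kb.

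The last tertile of the gene held less than the first. Among the 251 main genes of at least 3 kb, the density of the last tertile over that of the first was 0.529 (0.456 to 0.601) in untreated cells, 0.489 (0.445 to 0.571) after LPS and 0.742 (0.692 to 0.803) in the input. The intervals of both Ser5 libraries overlapped, and the ratio was higher after LPS in 108 of the 251 genes. Within the domains, exons held 2.09 times the tag density of introns in untreated cells (2.07 to 2.11), 1.41 times after LPS (1.40 to 1.42) and 0.923 times in the input (0.890 to 0.956). These are sums over all domains, so domains with most tags weigh most, such as Neat1 with 27720 untreated tags. The median exonic share of a domain was 37.2% in the untreated-only and 17.8% in the LPS-only class. The part of this mix, and of the peak over first exons, in the values of the libraries was not tested.

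Many long genes carried several domains, 48 genes with 132 domains. Ptprj, a receptor tyrosine phosphatase gene of 150894 bp, had 8, all wide after LPS only and with ratios from 3.78 to 5.04. Nrp2 had 6 with ratios from 1.95 to 2.72, and Pik3r5 and Rnf213 had 5 each. In 42 of the 48 genes all domains had the same call, in 26 higher, in 7 lower and in 9 neither, and no gene had domains called in opposite directions. The largest and smallest ratio within a gene differed by 1.35 times in the median and by at most 3.51 times. Csf1r (0.437 to 0.454), Psap (0.162 to 0.259) and Slco4a1 (0.183 to 0.230) were examples with domains lower after LPS. Domains of 1 gene share its polymerase and are not independent, and some are separated by short breaks between peaks, since 24 neighbouring pairs lay within 500 bp.

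Outside annotated genes lay 15 domains, of which 10 were wide after LPS only. For 13 of them the nearest gene was upstream, and 9 of these lay within 5 kb past its end. The longest, of 8592 bp and wide in both lists, began 106 bp past the end of Rbpj, the nuclear effector of Notch, with 1436 untreated and 1096 LPS tags, a ratio of 0.930 (0.859 to 1.01). A domain 20602 bp past the end of Nfkbia held 432 and 740 tags, a ratio of 2.09 (1.85 to 2.36). The largest ratio in this set was 8.34 (6.81 to 10.3) at a domain 12974 bp past the end of Fgd2 (chr17:29529580-29533660), with 109 and 746 tags. The others among the 5 longest of this set lay near Gm16912 (3.20), Rap1b (1.49), Gm14636 (4.40) and Swap70 (2.75).

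Non-coding genes were the main gene of 13 domains. Besides Neat1, they included the domain over Mir146, the gene of a microRNA that restrains Toll-like receptor signalling, with 1103 untreated and 1148 LPS tags over 7341 bp, a ratio of 1.27 (1.17 to 1.38). A domain at the host gene 2210403K04Rik, which contains Mir22, had 1251 and 1609 tags. Some domains in this set also contain a coding gene, such as A530013C23Rik with Cebpb (843 and 1020 tags) and Gm15441 with Txnip (1307 and 363 tags), and the tags of each pair cannot be told apart.

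Of 37252 annotated genes, 404 (1.08%) were touched by a domain, and of 22350 coding genes 344 (1.54%). The 8 gene lists hold genes known for high or inducible expression, and from 7.14 to 40% of their members were touched. Counts of members higher or lower over the gene body are given without the share of all genes that met the same rule. They therefore do not show whether a list differs from other genes. Of 30 inflammatory cytokine and chemokine genes 8 were touched (Ccl2, Ccl4, Ccl5, Ccl9, Cxcl10, Il1b, Il27 and Tnf), and the domain of each was at least 2 times higher after LPS, from 2.43 at Ccl2 to 380 at Ccl5. By tags over the gene body, 29 of the 30 were at least 2 times higher. Some of these had few tags, such as Csf2 with 4 untreated and 11 LPS tags, a ratio interval from 0.993 to 14.4. Il12a had 10 and 26 tags, and its LPS density of 0.526 TPM per kb was below the 0.605 of the input. Of 30 interferon response genes 11 were touched, all in the LPS-only class and all higher, from 2.20 at Slfn2 to 82.6 at Rsad2. Over the gene body 29 of the 30 were at least 2 times higher, and Irf8, which no domain touched, was lower (0.411). The higher ones include Ifi205 with only 3 untreated and 12 LPS tags. Of 35 genes of the NF-kB pathway and its feedback 14 were touched and 12 were higher, and over the gene body 29 of the 35 were higher. Taking the longest domain of each gene, the largest ratio there was 24.8 at Nos2 and the smallest 0.598 at Nfkbid, which encodes a nuclear I-kB protein and was wide in untreated cells only.

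Tnfaip3, the ubiquitin-editing brake on NF-kB, had 2 domains inside the gene with 129 untreated and 1140 LPS tags and with 223 and 1779 tags (ratios of 10.8 and 9.72). Neither reached its start. Nfkbia, the I-kB alpha gene and a rapid NF-kB target, was covered whole by a domain with 2115 and 9918 tags, a ratio of 5.72 (5.45 to 5.99). Of 28 immediate early and stress factor genes 6 were touched, with ratios from 1.00 at Atf4 to 3.16 at Atf3, and 3 were higher. Over the gene body 4 of the 28 were at least 2 times higher and 3 were lower.

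Of 30 lysosome and endosome genes 9 were touched, of which 5 were at least 2 times lower, with a median ratio of 0.424. Over the gene body 16 of the 30 were at least 2 times lower and 1 was higher. Among the touched genes the lower ones were Ctsa, Ctsb, Ctsd, Cd68 and Psap, while Grn, Npc2 and Ctsz had ratios of 1.01, 1.03 and 0.910. Ctsc, encoding the dipeptidase that activates serine proteases of granules, went the other way, with 254 untreated and 2081 LPS tags over 10576 bp, a ratio of 9.98 (8.76 to 11.4). Of 30 macrophage lineage and receptor genes 5 were touched, from 0.441 at Csf1r to 3.35 at Cd14, the LPS co-receptor. Over the gene body 12 of the 30 were at least 2 times lower and 4 were higher, with a median ratio of 0.680. Lyz2, which encodes lysozyme, had 2849 and 1177 tags, a ratio of 0.503 (0.470 to 0.539), just short of the rule of size.

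Of 30 cytoskeleton, glycolysis and translation genes of high expression 10 were touched, 8 of them in the class wide in both, with a median ratio of 0.922. Actb, the beta-actin gene, lay in a domain of 10171 bp with 6163 untreated and 6577 LPS tags, a ratio of 1.30 (1.26 to 1.35). Ftl1, the ferritin light chain gene, lay in one with 5757 and 4034 tags, a ratio of 0.854 (0.820 to 0.889). The largest ratio of this list was 2.02 at Fth1. Of the 14 annotated long non-coding RNA genes listed, Neat1 alone was touched.

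The coding main genes were shorter than other coding genes with a Ser5 peak, with medians of 14154.5 bp (12295 to 15848) and 22568 bp (21938 to 23205) and a median of 8.5 and 10 exons. GC content of the domains was 52.0% in the median (51.3 to 52.7%), against 57.7% (57.5 to 57.9%) in the 5477 other peak regions with as many tags and 50.4% (50.3 to 50.4%) in all 69511 other peak regions. The observed to expected ratio of CpG was 0.272 (0.252 to 0.293) in the domains and 0.698 (0.690 to 0.703) in the regions with as many tags, which are shorter, 1571 bp in the median. In all other peak regions it was 0.238 (0.236 to 0.239), so the domains lay below the first set and above the second in both measures. Within the domains CpG was densest in those over the start only, 0.400 (0.362 to 0.441), and was 0.231 (0.215 to 0.254) inside genes. By chromosome, 58 domains (15.8%) lay on chromosome 11, which holds 8.74% of all peak regions, and 2 lay on chromosome X.

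In coding promoters whose start lay in a domain of the main gene, motifs were counted by call. Among 57 promoters of domains at least 2 times higher after LPS, 17.5% held a kB match (Wilson interval 9.82 to 29.4%), 19.3% an ISRE-like match (11.1 to 31.3%), 17.5% an AP-1 match (9.82 to 29.4%) and 26.3% a TATA match (16.6 to 39.0%). Of all 22350 coding promoters of the same length, 4.74%, 3.79%, 6.93% and 13.4% held these, so the intervals lay above the overall shares. All coding promoters include those of genes without a Ser5 peak, and they were not matched in activity or CpG content. Among 68 promoters of domains within 2-fold, the shares were 5.88%, 1.47%, 4.41% and 10.3%, and their intervals held the overall shares. Among 23 promoters of domains at least 2 times lower, 65.2% held a GC box (44.9 to 81.2%), as did 73.5% (62.0 to 82.6%) of those within 2-fold and 45.6% (33.4 to 58.4%) of the higher ones, against 43.5% of all. CRE was found in 0 of 57 and 0 of 23, for which the Wilson upper limits are 6.31% and 14.3%, and in 2.33% of all. ISRE-like and AP-1 matches were each in 3 of the 23 lower ones (4.54 to 32.1%), an interval above the overall share for the ISRE-like match and holding it for AP-1. The kB and TATA shares of the lower ones were each 4.35% (0.772 to 21.0%). PU.1 matches were in 3.51% of the higher ones (0.968 to 11.9%), 8.70% of the lower ones (2.42 to 26.8%) and 7.35% of those within 2-fold (3.18 to 16.1%), against 3.12% of all.

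In the untreated list the peaks just inside were 4005 bp at Acot13 (2470 untreated and 330 LPS tags) and 4032 bp at Zc3h4 (1237 and 1038), and those just outside 3987 bp at Hnrnpl (271 and 155) and 3980 bp at Dhrs3 (424 and 121). In the LPS list they were 4006 bp at Vim (1598 and 1001) and 4011 bp at Txn1 (770 and 1009) inside, and 3998 bp at Nod2 (48 and 352) and 3997 bp at Rnf213 (165 and 830) outside. The last of these lies in a gene that carries 5 domains.

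The libraries held 7616771 untreated Ser5, 6249819 LPS Ser5 and 7533308 input tags. Tags were 45 bases long in the untreated, 30 in the LPS and 36 in the input library, the reverse for the Ser5 libraries of what the written methods state, and counting only tags with a unique 30-mer changed the call of 1 domain (C5ar1, 0.497 to 0.503). An exchange of the Ser5 libraries would turn every direction given here, and the labels were followed. Cytokine and chemokine genes are a class known to be induced by LPS. Touched or not by a domain, 29 of the 30 listed were at least 2 times higher over the gene body in the library labelled LPS. Ccl5 had 7801 LPS and 24 untreated tags there, while Csf2 had only 11 and 4. The list was chosen with earlier results of these data known. The labels name LPS alone for the stimulated library, whereas the written study also names interferon gamma beside LPS for stimulated macrophages, so a part of added interferon in the values at interferon response genes was not tested. Macrophage markers marked the cells as labelled, since 8 of 8 were at least 2 times above input in untreated cells and 7 of 8 after LPS, Itgam excepted, and domains touched Csf1r, Cd68, Sfpi1, Lyz2 and Mpeg1. Of 29 markers of granulocytes, T, B, dendritic, stromal and mast cells, Cd3d and Lck were at least 2 times above input in both Ser5 libraries and Camp in the LPS library, and none was touched by a domain.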

How the data were processed

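Ser5 Pol_II ChIP-Seq and input DNA were analysed from the aligned tags and peak lists deposited by the authors. Per the labels and methods, the authors shortened the Ser5 reads from their 3′ ends and used Bowtie to place them on mm9, keeping unique matches with up to 2 mismatches. Peaks came from MACS, run separately for both Ser5 libraries with input DNA as control, at a p-value threshold of 1e-05; versions are not given in the sources used here. Peaks were called per library. The score in the deposited peak lists is minus 10 times log10 of the MACS p-value by the authors and was used only to filter peaks in an alternative.

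Each library was mapped to its condition from the labels. Peaks of at least 4000 bp were merged across lists where they overlapped by 1 base. Genes were those of GENCODE M1, whose build matches the files. Tags, duplicates included, were counted by 5′ end and scaled to the library total on chromosomes 1 to 19 and X. Intervals at 95% were exact Poisson for counts, exact conditional on the sum for ratios, Wilson for shares and order-statistic for medians. Those of counts, ratios and shares of tags cover counting error only, and PCR copies are not independent molecules. Those of medians and of promoter shares reflect the spread over regions, genes or promoters, and none measures replicate error. Steps were tested on simulated data. Python 3.11.15, numpy 2.4.6, pandas 2.3.3 and scipy 1.17.1 were used.

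Domains, gene lists and markers were chosen with earlier results of these data known. Named domains were the 8 longest of each class, the 10 largest and 10 smallest ratios, the 5 longest outside genes, the 2 peaks of each list on either side of 4000 bp, list members touched by a domain (by count, with the largest and smallest ratios), and, for sequences, promoters of genes among the largest and smallest ratios whose start lay in the domain; others were named after their values were seen. The smallest ratio of 1 gene list is not reported here. The alternatives were other length minima (3000, 5000 and 8000 bp), peaks joined within 500 bp, a score minimum, 1 tag per position and strand, scaling to tags outside peaks, tags moved by 75 bp, tags with a unique 30-mer, input subtraction and other rules for gene coverage.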

Additional observations from a re-analysis of the deposited data

How the results depend on the processing

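Each condition has 1 library, so no replicate could be left out. No paired analysis was possible because each condition has 1 library. The number and make-up of the domains depended on the length rule. With minima of 3000, 5000 and 8000 bp and with peaks joined within 500 bp there were 786, 212, 47 and 1624 domains. Of these 223, 42, 11 and 523 were wide in the untreated list only, 392, 131, 31 and 667 in the LPS list only, and 171, 39, 5 and 434 in both. The median ratios were 1.47, 2.22, 2.45 and 1.27, with 329, 114, 26 and 576 domains at least 2 times higher and 115, 26, 9 and 249 at least 2 times lower. Coverage of the main gene by LPS peaks was then 61.8%, 88.6%, 95.6% and 49.4%, and by untreated peaks 50.0% at 3000 bp and 42.8% with joined peaks. When only peaks of at least 4000 bp were counted, coverage was 4.11% in the untreated list and 22.4% in the LPS list. A peak score of at least 100 removed no domain. The ways of counting and scaling tags gave 173 to 180 higher and 44 to 52 lower domains and medians from 1.76 to 1.91, and no domain was called in the opposite direction. The percentages of all regions called depended on the minimum of tags, as given above for regions with at least 308 tags, an alternative chosen after seeing the data. Domains with few tags in a library, such as Nos2 with 8 untreated tags, have the widest intervals.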

Other observations

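Long stretches of Ser5 also occurred without any peak of 4000 bp. Of 13294 coding genes of at least 10 kb that no domain touched, 206 were covered to at least 50% by shorter peaks in a library, 121 of them more after LPS and 85 less. The genes named here were chosen after their values were seen. Nfkb1, which encodes the p105 precursor of NF-kB p50, was covered to 2.28% by untreated and to 87.5% by LPS peaks, in 92 LPS peaks of at most 3966 bp, with 1510 untreated, 6949 LPS and 765 input tags over the gene. Traf1, a signalling adaptor of TNF receptors, was covered to 16.7% and 92.5%, with 388 and 2701 Ser5 tags. Cd300lb, an activating receptor of myeloid cells, was covered to 90.5% by untreated peaks and by no LPS peak, with 1151 untreated, 96 LPS and 135 input tags. Gpr146, a G protein-coupled receptor gene, was covered to 86.5% and 3.34%, with 1354 untreated, 142 LPS and 162 input tags.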
